A study of Mus musculus with 10 samples.

Results

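Complement and coagulation genes are described here as 39 genes that the liver transcribes for the complement cascade, the clotting cascade, the inhibitors of both and the enzymes that recycle and use vitamin K. The genes were taken by symbol from a fixed list of 15 complement and 24 coagulation genes, and all 39 were found among the 16647 genes counted in the livers. Each of the 39 passed the minimum of 60 counts summed over the livers that was required for testing, as did 13219 genes in all. The livers came from male mice of the humanized PXR-CAR-CYP3A4/3A7 line, 5 given vehicle (control) and 5 given MI-883, in which the human genes for the xenobiotic receptors PXR and CAR and for CYP3A4 and CYP3A7 stand in place of the mouse genes. All mice were 10 to 15 weeks old when they were put on a high-fat diet (HFD), which was given for 8 weeks before dosing. They stayed on the HFD while both groups were gavaged 3 times per week for 4 weeks. The treated mice received MI-883, a CAR agonist that acts as an antagonist of PXR, at 5 mg/kg in 5% DMSO, 5% PEG300 and 90% corn oil, and the control mice received that vehicle alone. Each library came from 1 mouse, so that the replicates were separate animals.

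Complement is a set of plasma proteins made largely by hepatocytes. Mannose-binding lectins and C1 start the lectin and classical pathways, both converge with the alternative pathway on C3, and the terminal components C5 to C9 then assemble a pore in the membrane of the target. In coagulation, the contact system and the tissue factor pathway lead to thrombin, which cuts fibrinogen into fibrin, while antithrombin, protein C and the plasmin system hold the process in check. Prothrombin, factors VII, IX and X, protein C and protein S work only after γ-glutamyl carboxylase (Ggcx) has modified them with the help of reduced vitamin K, and the reductase Vkorc1, the target of warfarin, returns the vitamin to its reduced form.

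Of the 39 genes, *Ggcx* and *C6* were higher and *Mbl1* was lower after MI-883, with an adjusted P under 0.05 (edgeR, quasi-likelihood test, Benjamini-Hochberg over 13219 genes). The 3 called genes are 7.69% of the 39, beside 1.03% of all tested genes called. In the upward direction, 2 of the 39 (5.13%) were called beside 0.764% of all tested genes, and in the downward direction 1 (2.56%) beside 0.265%. The Wald test of DESeq2, run as an alternative, called 6 of the 39 (15.4%) beside 3.5% of all genes, adding *Klkb1*, *Pros1* and *Fgg*. In 5 of the 39 (12.8%) the groups did not overlap, beside 3.98% of all genes. An unadjusted P under 0.05 (edgeR) was found for 13 of the 39 and for 2059 of all 13219 genes. The 39 genes leaned downward, though *Mbl1* alone of those below 0 was called by edgeR: 31 had a negative and 8 a positive log2 fold change, with a median of −0.15, whereas 6475 of all 13219 genes were negative and their median was 0.0045. With total counts in place of TMM scaling, the median was −0.12 for the 39 genes and 0.049 for all genes. Many of the 39 genes rose and fell together from liver to liver, so they are not 39 separate observations, and the lean was not tested. Their median log2 deviation from their own means was −0.10, −0.03, 0.13, 0.07 and 0.17 in control livers. In treated livers it was −0.09, 0.01, −0.19, 0.12 and −0.13, so that the groups overlapped.

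**Figure D1:**
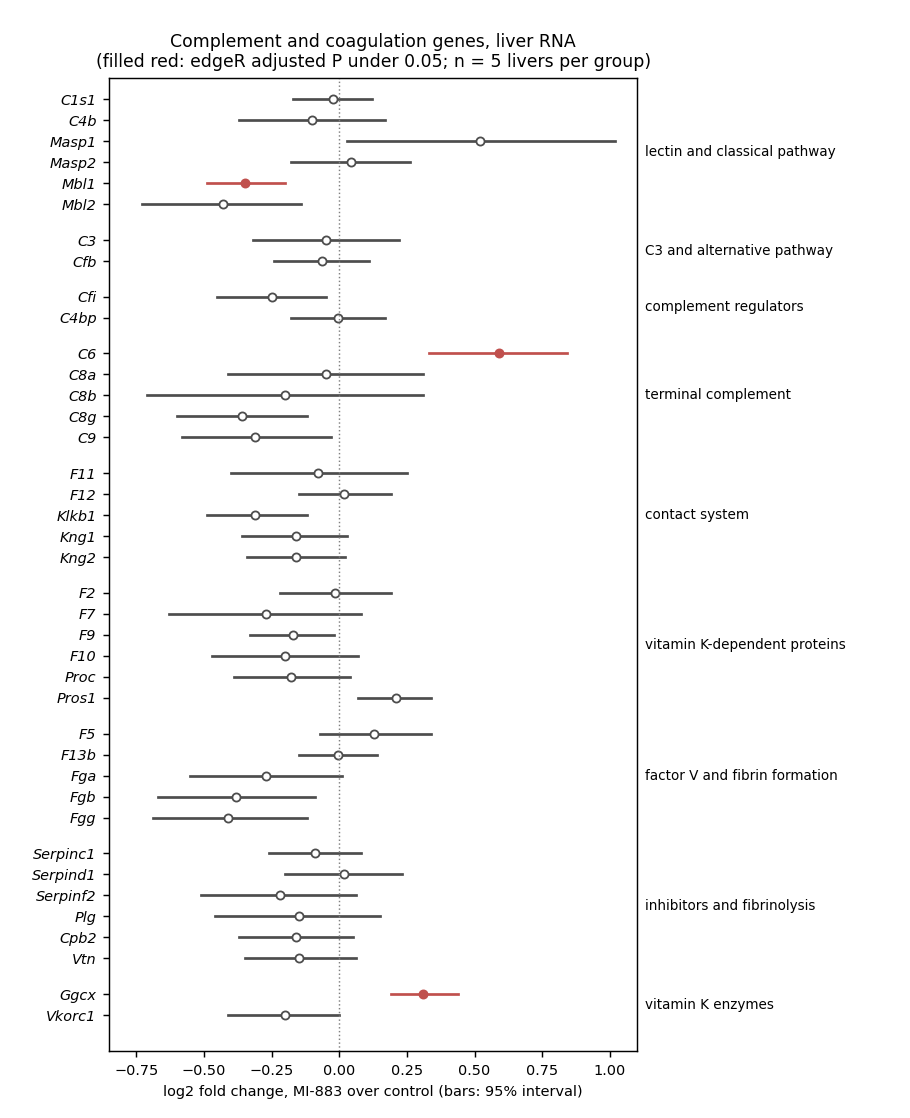
Log2 fold change of each gene in MI-883-treated over control livers (horizontal axis, points) with its 95% interval (bars) from 5 livers per group, ordered by cascade. Filled red points are the 3 genes with an edgeR adjusted P under 0.05 (*Ggcx*, *C6* and *Mbl1*), and 31 of the 39 points lie below 0.

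The sequences upstream of the 3 called genes and of the 3 fibrinogen genes are shown to place these genes in the genome. Each is the 250 bases before the start of a RefSeq transcript in GRCm38.p6, written 5′ to 3′ along the gene, with capitals for matches to any of 8 short motifs searched on both strands. For *Ggcx* and *C6* that transcript starts inside the span of the gene given further on, so the window reaches into it.

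*Ggcx*, chr6:72414058-72414307, plus strand: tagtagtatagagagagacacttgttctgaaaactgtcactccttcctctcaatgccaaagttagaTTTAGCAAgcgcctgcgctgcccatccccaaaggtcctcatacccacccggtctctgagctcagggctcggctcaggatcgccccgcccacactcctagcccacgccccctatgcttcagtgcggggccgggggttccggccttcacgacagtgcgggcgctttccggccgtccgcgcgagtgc
*C6*, chr15:4726960-4727209, plus strand: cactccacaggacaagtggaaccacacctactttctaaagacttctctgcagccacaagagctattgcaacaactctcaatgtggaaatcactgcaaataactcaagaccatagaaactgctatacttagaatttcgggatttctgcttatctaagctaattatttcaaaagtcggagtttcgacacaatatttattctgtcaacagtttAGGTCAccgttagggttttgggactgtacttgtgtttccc
*Mbl1*, chr14:41151206-41151455, plus strand: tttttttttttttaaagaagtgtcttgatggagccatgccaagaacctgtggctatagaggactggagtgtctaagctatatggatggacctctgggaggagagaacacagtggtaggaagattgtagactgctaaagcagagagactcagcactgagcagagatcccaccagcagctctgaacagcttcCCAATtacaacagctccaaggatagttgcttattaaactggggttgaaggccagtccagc
*Fga*, chr3:83025903-83026152, plus strand: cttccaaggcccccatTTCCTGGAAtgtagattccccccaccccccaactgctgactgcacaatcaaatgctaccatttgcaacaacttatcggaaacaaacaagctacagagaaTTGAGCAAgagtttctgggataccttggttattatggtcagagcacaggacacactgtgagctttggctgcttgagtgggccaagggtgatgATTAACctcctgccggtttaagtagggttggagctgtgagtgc
*Fgb*, chr3:83049864-83050113, minus strand: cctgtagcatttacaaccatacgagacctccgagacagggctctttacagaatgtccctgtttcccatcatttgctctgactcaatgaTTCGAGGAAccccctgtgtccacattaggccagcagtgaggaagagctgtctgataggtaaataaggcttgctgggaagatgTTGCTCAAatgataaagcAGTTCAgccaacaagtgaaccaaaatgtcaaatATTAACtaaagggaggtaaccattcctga
*Fgg*, chr3:83007474-83007723, plus strand: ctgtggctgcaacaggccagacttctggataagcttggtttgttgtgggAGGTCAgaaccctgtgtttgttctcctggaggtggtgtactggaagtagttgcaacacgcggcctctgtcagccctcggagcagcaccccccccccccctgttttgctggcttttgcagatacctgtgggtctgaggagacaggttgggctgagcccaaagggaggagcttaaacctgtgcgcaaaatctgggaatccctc

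The motifs were TATAAA (the TATA box), CCAAT (the CCAAT box), GTTAAT (a partial HNF1 site), CAAAGTCCA (HNF4), TTGCNNAA (C/EBP), TTCNNNGAA (STAT), and AGTTCA as well as AGGTCA, each a single arm of the sites that nuclear receptors bind. Windows were given for 32 of the 39 genes, 34 windows in all, and compared with 32851 windows of the same length. GTTAAT was found in 20.6% of the members' windows and in 6.43% of all windows, TTGCNNAA in 29.4% and 9.56%, TTCNNNGAA in 17.6% and 7.02%, and AGGTCA in 32.4% and 14%. AGTTCA was found in 11.8% of both, CCAAT in 20.6% and 33.8%, TATAAA in 5.88% and 12.4%, and CAAAGTCCA in 0 and 0.384%. In the windows of the tested genes alone, 13536 in number, the shares were 4.51% for GTTAAT, 7.95% for TTGCNNAA, 6.06% for TTCNNNGAA and 11.4% for AGGTCA. There AGTTCA was found in 8.95%, CCAAT in 35.1%, TATAAA in 7.03% and CAAAGTCCA in 0.451%. These shares were not tested. In the windows printed above, *Fga* and *Fgb* each hold a GTTAAT, a TTGCNNAA and a TTCNNNGAA match, while *Fgg* holds AGGTCA alone. The window of *C6* holds AGGTCA, that of *Ggcx* a TTGCNNAA match and that of *Mbl1* CCAAT. A match gives letters in a window and does not show that a protein binds there.

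Of the enzymes of the vitamin K cycle, the carboxylase was called and the reductase was not. *Ggcx* (Entrez 56316, chr6:72414279-72433359, GRCm38) encodes the carboxylase. Its level, given as CPM (counts relative to the TMM-scaled library size), was 52.1, 50.9, 54.1, 50.5 and 50.4 in the 5 control livers and 59.1, 65.3, 64.6, 62.9 and 68.9 in the 5 MI-883-treated livers. Every treated liver was above every control liver, and the control livers spanned less than 4 CPM. The mean rose from 51.6 ± 1.56 to 64.2 ± 3.59 CPM (S.D., n = 5 per group), a log2 fold change of 0.31 (SE 0.0596, 95% interval 0.19 to 0.44, edgeR adjusted P = 0.0253). By an exact permutation test (two-sided) P was 0.00794, the smallest value possible with 5 livers against 5. This value is not adjusted and follows from the lack of overlap, here as for *Mbl1* and *C6* below, so it adds nothing to it. The groups did not overlap in 3.98% of all tested genes. Leaving out 1 liver at a time kept the log2 fold change between 0.29 and 0.34, but the adjusted P passed 0.05 without control replicate 2 (0.0691), 4 (0.0629) or 5 (0.0772) and without MI-883 replicate 2 (0.067), 3 (0.0529) or 5 (0.0759).

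*Vkorc1*, the reductase, did not pass the test. Its level was 212, 201, 198, 243 and 225 CPM in control livers and 206, 204, 162, 205 and 161 CPM in treated livers, so that the groups overlapped while 5 of 5 treated livers lay below the control median. The log2 fold change was −0.20 (SE 0.0953, 95% interval −0.41 to 0.00, edgeR adjusted P = 0.325). Of the 100-base stretches of *Vkorc1* transcripts, 41% also occur in Gm21974, a gene model on the same strand. How reads from shared stretches were counted is not known. The ratio of *Ggcx* to *Vkorc1* within a liver ran from 0.208 to 0.272 in control and from 0.287 to 0.429 in MI-883-treated livers, with no overlap. The difference was 0.52 on the log2 scale. It is 1 of 6 ratios chosen after the values of the genes were seen. For that reason the 6 ratios are given as a description, without P values.

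Among the genes for proteins that Ggcx modifies, the 6 vitamin K-dependent ones listed, 5 had a negative and 1 a positive log2 fold change, with a median of −0.17. None was called by edgeR and 1 was called by DESeq2, beside 1.03% and 3.5% of all tested genes. An unadjusted P under 0.05 was found for 2 of the 6, beside 2059 of all 13219 genes. *Pros1*, which encodes protein S, the cofactor of activated protein C, was the positive one, at 69.9, 72.6, 64.4, 65.7 and 75.9 CPM in control and 83.3, 78.9, 78.8, 81.2 and 80.5 CPM in treated livers. All treated livers lay above all control livers, yet the difference was small: log2 fold change 0.21 (SE 0.0619, 95% interval 0.07 to 0.34, edgeR adjusted P = 0.143, DESeq2 adjusted P = 0.0344). *Proc*, the zymogen of protein C with which protein S acts, had a log2 fold change of −0.18 (SE 0.0993). The clotting zymogens stood at −0.014 for prothrombin (*F2*), −0.27 for factor VII (*F7*), −0.17 for factor IX (*F9*) and −0.20 for factor X (*F10*), with edgeR adjusted P between 0.277 and 0.963.

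**Figure D2:**
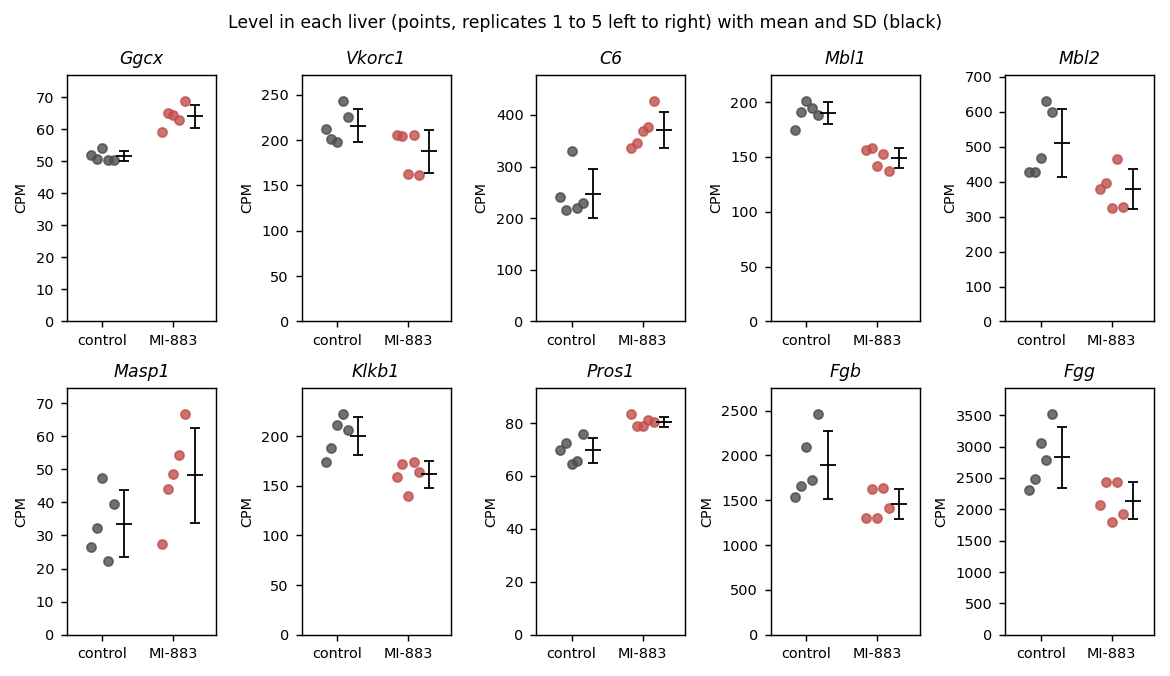
CPM (vertical axes, from 0) of 10 genes in each control (grey) and MI-883-treated (red) liver, with the mean and S.D. of 5 livers in black. The groups are apart for *Ggcx*, *Pros1* and *C6* (treated livers higher) and for *Mbl1* and, narrowly, *Klkb1* (treated livers lower), and overlap for *Vkorc1*, *Mbl2*, *Masp1*, *Fgb* and *Fgg*.

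At the entry to the lectin pathway, the mannose-binding lectin *Mbl1* (Entrez 17194, chr14:41151456-41163904) was the 1 member that fell with an edgeR adjusted P under 0.05. It was at 175, 191, 201, 195 and 188 CPM in control livers and at 156, 158, 142, 153 and 137 CPM in treated livers, with every treated liver below every control liver. The means were 190 ± 9.81 and 149 ± 9.25 CPM (S.D., n = 5), a log2 fold change of −0.35 (SE 0.0669, 95% interval −0.49 to −0.20, edgeR adjusted P = 0.026, exact two-sided permutation P = 0.00794). The change stayed between −0.38 and −0.32 when 1 liver was left out, with an adjusted P under 0.05 without control replicate 1 (0.0247) and MI-883 replicates 1 (0.0362) and 4 (0.0429). It was above 0.05 without control replicates 2 (0.0691), 3 (0.0691), 4 (0.065) or 5 (0.0692) and without MI-883 replicates 2 (0.0521), 3 (0.066) or 5 (0.0802).

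*Mbl2*, on chr19, encodes the second mannose-binding lectin. It was the member with the most negative fold change but varied more: 428, 427, 469, 631 and 599 CPM in control and 379, 395, 325, 465 and 327 CPM in treated livers. Only MI-883 replicate 4 reached into the control range, and the log2 fold change was −0.43 (SE 0.135, 95% interval −0.73 to −0.14, edgeR adjusted P = 0.161, DESeq2 adjusted P = 0.053). The ratio of *Mbl1* to *Mbl2* differed by 0.08 on the log2 scale. It ran from 0.309 to 0.447 in control and from 0.329 to 0.437 in treated livers.

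The proteases that act with these lectins were not called. *Masp1*, whose single locus encodes MASP-1 and shorter or alternative products, was at 26.6, 32.2, 47.4, 22.2 and 39.4 CPM in control and at 27.4, 43.9, 48.5, 54.3 and 66.6 CPM in treated livers. The highest treated livers exceeded all controls, whereas MI-883 replicate 1 stood with the lowest controls. The log2 fold change of 0.52 (SE 0.228, 95% interval 0.03 to 1.02) did not pass the test (edgeR adjusted P = 0.291). *Masp2* (0.043), the classical pathway protease gene *C1s1* (−0.025) and *C4b* (−0.10), which encodes the component both pathways cleave, had edgeR adjusted P between 0.745 and 0.888. Exons of *Masp2* overlap those of *Tardbp* on the other strand over 54.9% of their bases, and 15.2% of the 100-base stretches of *C4b* also occur in *C4a*.

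At the centre of the cascade no difference passed the test. *C3*, the component on which all pathways converge, had 3569 ± 585 CPM in control and 3453 ± 409 CPM in treated livers (S.D., n = 5), a log2 fold change of −0.048 (95% interval −0.32 to 0.22), and factor B (*Cfb*), the protease of the alternative pathway, was at −0.065 (95% interval −0.24 to 0.11). Of the 100-base stretches of *Cfb* transcripts, 66.9% also occur in Gm20547, a gene model on the same strand, the largest share among the 39 genes. The interval of *C3* leaves room for a decrease of up to 0.32 on the log2 scale. Of the regulators, *Cfi*, the protease that inactivates C3b and C4b, was at −0.25 (SE 0.0941, edgeR adjusted P = 0.232), and *C4bp*, its cofactor for C4b, at −0.0056 (SE 0.0821).

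Of the 5 genes of the terminal pathway, *C6* was called, upward. *C6* (Entrez 12274, chr15:4727067-4804045) was at 241, 216, 330, 219 and 230 CPM in control and at 336, 345, 369, 376 and 427 CPM in treated livers. The groups did not overlap, although control replicate 3 came within 6 CPM of the lowest treated liver. Its mean rose from 247 ± 47.1 to 371 ± 35.6 CPM (S.D., n = 5), a log2 fold change of 0.59 (SE 0.117, 95% interval 0.33 to 0.84, edgeR adjusted P = 0.0306, exact two-sided permutation P = 0.00794).

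Without control replicate 3 the log2 fold change of *C6* was 0.71 and the adjusted P 0.00176. The adjusted P was also under 0.05 without control replicate 1 (0.0474) or MI-883 replicate 1 (0.037). It was above 0.05 without control replicate 2 (0.0838), 4 (0.0926) or 5 (0.0917) and without MI-883 replicate 2 (0.062), 3 (0.069), 4 (0.0581) or 5 (0.0927), with the log2 fold change of *C6* no lower than 0.53 in any of the 10 fits.

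The other terminal components, which join C6 in the same pore, had negative fold changes that did not pass the test: *C8a* −0.048, *C8b* −0.20, *C8g* −0.36 and *C9* −0.31, with edgeR adjusted P between 0.16 and 0.916. In control replicate 3, *C8a* stood at 823 CPM against 417 to 536 CPM in the other controls. *C8b* was at 237 against 81.5 to 194, and *C9* at 471 against 306 to 376. *C8g*, at 657 CPM, lay within the range of the other controls (547 to 756 CPM). The high *C6* in this liver thus went along with high *C8a*, *C8b* and *C9*, but not *C8g*. High levels were not particular to these genes, since 35 of the members stood above their own mean in this liver. Taken within each liver, *C6* over *C8a* was 0.4 to 0.578 in control and 0.676 to 0.781 in MI-883-treated livers. *C6* over *C9* was 0.582 to 0.787 and 1.02 to 1.39, and *C6* over *C8g* 0.29 to 0.501 and 0.64 to 1.01, each without overlap. These 3 ratios differed by 0.61, 0.89 and 0.96 on the log2 scale, and *C6* over *C8b* by 0.71 with overlap between the groups. *C7*, the component that follows C6, was close to the limit of measurement in these livers at 0.260 ± 0.099 and 0.347 ± 0.254 CPM.

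**Figure D3:**
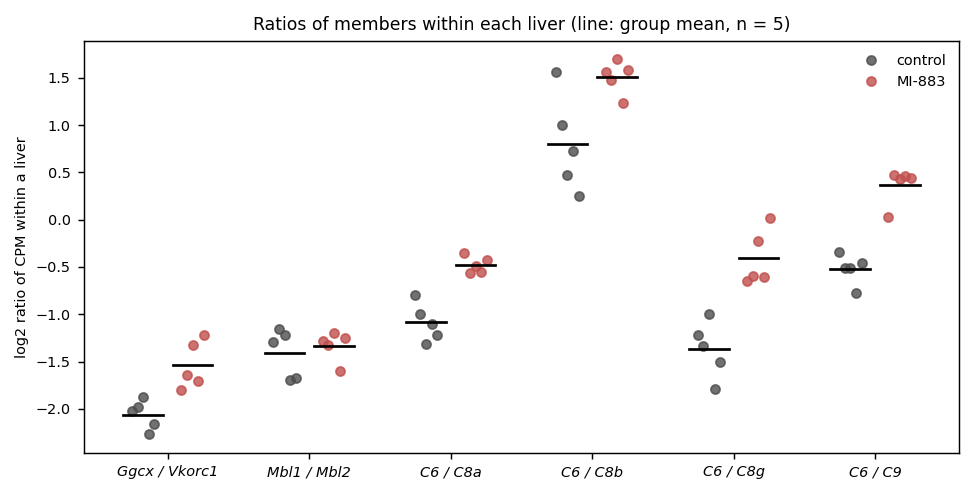
Log2 ratio of the CPM of paired genes within each liver (vertical axis) for control (grey) and MI-883-treated (red) livers, with a line at each group mean (n = 5). The groups are apart for *Ggcx* over *Vkorc1* and for *C6* over *C8a*, *C8g* and *C9*, while *Mbl1* over *Mbl2* differs by 0.08.

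In the contact system, plasma prekallikrein (*Klkb1*), which activates factor XII and is activated by it, was called by DESeq2 but not by edgeR. It was at 174, 188, 211, 222 and 206 CPM in control and at 159, 172, 140, 174 and 164 CPM in treated livers. The lowest control and the highest treated liver were equal to 3 digits, and the groups were parted by less than that. The log2 fold change was −0.31 (SE 0.0848, 95% interval −0.49 to −0.12, edgeR adjusted P = 0.115, DESeq2 adjusted P = 0.0249). Of the 100-base stretches of *Klkb1* transcripts, 42.1% also occur in Gm45753, a gene model on the same strand.

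The partners of *Klkb1* were closer to 0. Factor XII (*F12*) was at 0.017 and factor XI (*F11*), whose gene lies next to *Klkb1* on chr8, at −0.079. The kininogen genes *Kng1* and *Kng2*, which encode the cofactor and the source of bradykinin, were at −0.16 each (edgeR adjusted P = 0.413 and 0.382). Of the 100-base stretches of these paralogs, 4.93% of those of *Kng1* occur in *Kng2* and 5.29% of those of *Kng2* in *Kng1*.

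The 3 fibrinogen chains, which are joined in equal numbers in the secreted protein and whose genes lie side by side on chr3, had negative fold changes of similar size. *Fga* (chr3:83026153-83033627) was at 2657, 3053, 3575, 3081 and 4312 CPM in control and at 2663, 3095, 2378, 3021 and 2652 CPM in treated livers. *Fgb* (chr3:83042246-83049863) was at 1536, 1655, 2097, 1724 and 2459 CPM and at 1300, 1630, 1307, 1639 and 1410 CPM. *Fgg* (chr3:83007724-83015056) was at 2305, 2481, 3053, 2781 and 3515 CPM and at 2074, 2442, 1801, 2435 and 1919 CPM.

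Control replicates 5 and 3 were the highest of all livers for each chain, MI-883 replicates 2 and 4 lay within the control range for each, and the groups overlapped. The log2 fold changes were −0.27 for *Fga* (SE 0.131, edgeR adjusted P = 0.338), −0.38 for *Fgb* (SE 0.133, adjusted P = 0.197) and −0.41 for *Fgg* (SE 0.131, adjusted P = 0.168, DESeq2 adjusted P = 0.0481). The chains varied together. Over the 10 livers each chain spanned 1.81-fold to 1.95-fold, but the ratio of *Fgb* to *Fga* spanned 1.2-fold (0.488 to 0.587), that of *Fgg* to *Fgb* 1.18-fold (1.36 to 1.61) and that of *Fgg* to *Fga* 1.25-fold (0.724 to 0.903). The *Fgg* to *Fga* ratio was 0.813 to 0.903 in control and 0.724 to 0.806 in MI-883-treated livers, without overlap. These ratios were chosen after the values were seen and were not tested.

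Factor V (*F5*), the cofactor that speeds the formation of thrombin, was at 0.13 (SE 0.095, edgeR adjusted P = 0.524), and *F13b*, the carrier subunit of the enzyme that cross-links fibrin, at −0.0064 (SE 0.0686). None of the 6 inhibitors and fibrinolysis genes was called by edgeR or DESeq2 or had an unadjusted P under 0.05, and 5 of the 6 were negative, with a median of −0.15. Antithrombin (*Serpinc1*) was at −0.090 (95% interval −0.26 to 0.08), heparin cofactor II (*Serpind1*) at 0.016 and the plasmin inhibitor *Serpinf2* at −0.22. Plasminogen (*Plg*) was at −0.15, *Cpb2*, whose product slows the lysis of fibrin, at −0.16, and vitronectin (*Vtn*), which binds terminal complement complexes, at −0.15. Their edgeR adjusted P lay between 0.435 and 0.955. Exons of *Serpinc1* overlap those of *Zbtb37* on the other strand over 34.4% of their bases.

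The livers differed among themselves in the level of the whole group. The 39 genes took between 3.03% and 3.76% of the counts of a liver. Their summed level was 29914 to 39634 CPM in control and 27616 to 34533 CPM in treated livers. In control replicates 5 and 3, 36 and 35 of the 39 genes stood above their own mean over the 10 livers, and in MI-883 replicate 4 it was 32. In control replicate 1 it was 5, and in MI-883 replicates 1 and 3 it was 7 each. Within each group, therefore, livers ranged from mostly low to mostly high, and *Ggcx*, *Pros1*, *C6* and *Masp1* were among the exceptions to the low level of MI-883 replicates 3 and 5.

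**Figure D4:**
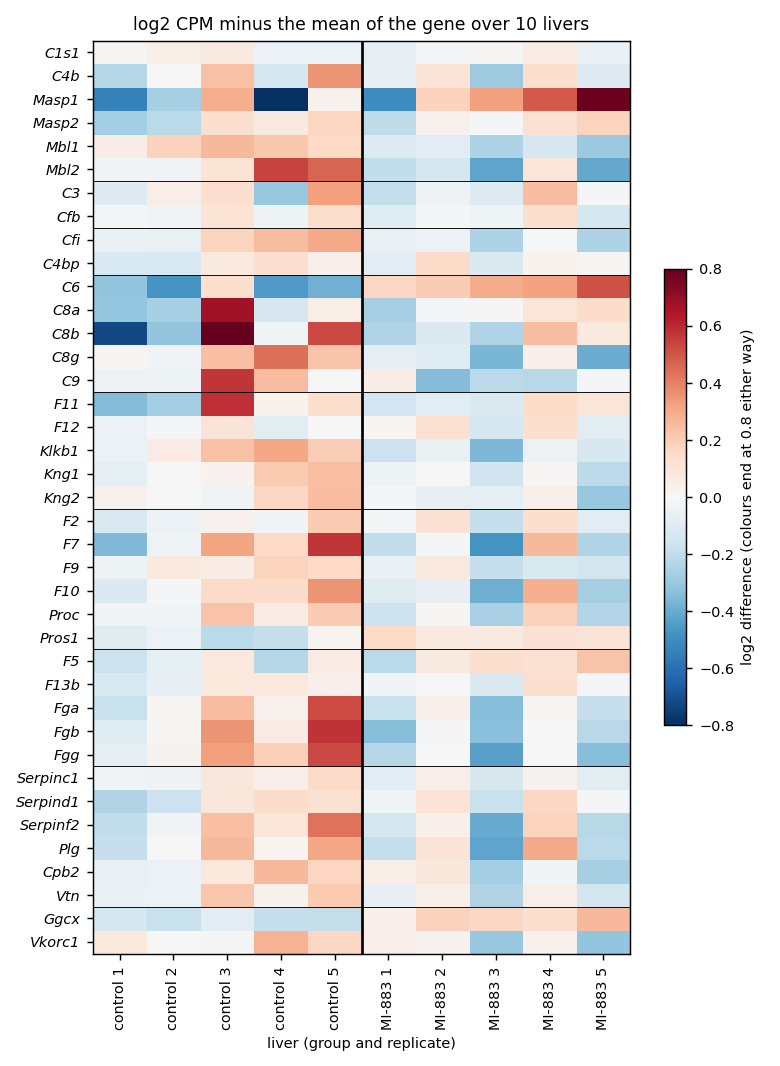
Log2 CPM of each gene (rows, ordered by cascade) in each liver (columns) minus its mean over the 10 livers, red above and blue below the mean, with the colour scale ending at 0.8 in either direction. Control replicates 3 and 5 and MI-883 replicate 4 are mostly red (35, 36 and 32 of 39 genes above their mean), MI-883 replicate 3 is mostly blue (7 of 39), the *Ggcx* row changes at the line between the groups, and the *C6* row does so except for control replicate 3.

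Compared per length of the longest annotated transcript, which puts genes of different size on one scale, the levels spread widely. In control livers, *Fgg* was highest at 1624 ± 275 CPM per kilobase (S.D., n = 5), followed by *Fga* (1289 ± 246) and *Vtn* (1244 ± 117), a pair that differed by less than their S.D. *Kng1* (1038 ± 99.1) and *F2* (893 ± 78.1) came next. *Mbl1* had 121 ± 6.27, *C6* 85.9 ± 16.4 and *Pros1* 21.1 ± 1.45 CPM per kilobase. *Ggcx* was next to last at 17.6 ± 0.532, below its partner *Vkorc1* at 289 ± 24.6, and *Masp1* last at 6.28 ± 1.88. In control livers 27 of the 39 genes, *Mbl1* among them, had over 100 CPM per kilobase. These levels depend on the length used: with the median transcript length, *C3* moved from 695 to 6442 and *Serpinc1* from 402 to 2260 CPM per kilobase.

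**Figure D5:**
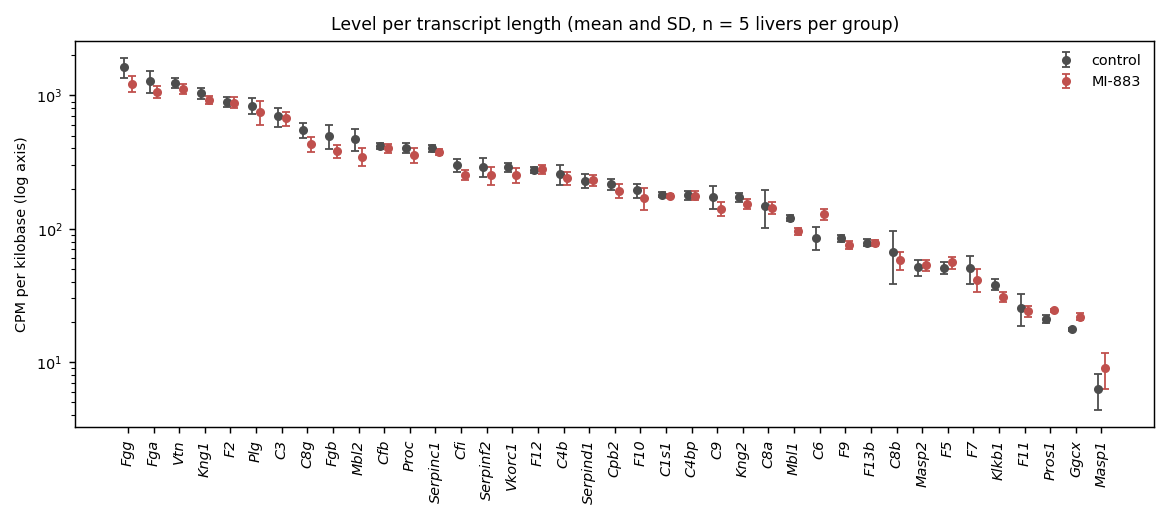
Level of each of the 39 genes per kilobase of its longest transcript (vertical axis, log scale) as mean and S.D. of 5 control (grey) and 5 MI-883-treated (red) livers, in the order of the control level. *Fgg* is highest at 1624 and *Masp1* lowest at 6.28 CPM per kilobase in control livers.

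A further 67 genes of the same cascades, among them receptors, regulators on cell membranes and factors made mostly outside hepatocytes, were listed by their function. Of these, 59 were tested, and 2 were higher and 1 lower by edgeR, beside 0.764% higher and 0.265% lower of all tested genes. The median log2 fold change of the 59 was 0.08, beside 0.0045 over all genes. *Cfd*, the factor D of the alternative pathway that is best known from fat cells as adipsin, fell most, from 12.3 ± 4.06 to 2.57 ± 1.24 CPM (S.D., n = 5; log2 fold change −2.25, SE 0.316, edgeR adjusted P = 0.00354). *F2r*, the thrombin receptor PAR1, rose from 41.0 ± 5.44 to 57.8 ± 5.99 CPM (log2 fold change 0.50, SE 0.0983, edgeR adjusted P = 0.0294).

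The adjusted P of *Cfd* stayed under 0.05 in all 10 fits that left out 1 liver, and that of *F2r* in 5. *F2r* was above 0.05 without control replicate 3 (0.0816), 4 (0.0813) or 5 (0.0774) or MI-883 replicate 3 (0.0782) or 5 (0.0903). It also missed 0.05 with total counts in place of TMM, at a log2 fold change of 0.54. For both genes the groups did not overlap.

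*Serpina5*, the protein C inhibitor, ran from 0.029 to 0.531 CPM in control and from 0.531 to 1.07 CPM in treated livers, apart by less than the third digit, and was not called (log2 fold change 1.41, SE 0.507, edgeR adjusted P = 0.208). The 4 other genes of vitamin K metabolism were positive. None of them was called by edgeR or DESeq2, while 3 had an unadjusted P under 0.05, beside 2059 of all 13219 genes. *Nqo1*, a quinone reductase, was at 0.60 (edgeR adjusted P = 0.192), *Aifm2*, a vitamin K reductase, at 0.19 (adjusted P = 0.268) and *Vkorc1l1*, the paralog of *Vkorc1*, at 0.068 (adjusted P = 0.818).

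In whole liver, fewer cells of a type and less RNA per cell cannot be told apart, and markers of cell types were therefore counted beside these results. All 6 hepatocyte markers in the table were abundant, with summed levels of 66852 to 76497 CPM in control and 58961 to 69801 CPM in treated livers, and 5 of the 6 had negative fold changes with a median of −0.11. Of these, *Ttr*, the plasma carrier transthyretin, was at −0.25 with groups apart (SE 0.0992, edgeR adjusted P = 0.257). *Alb* gave most of the hepatocyte sums, at 52147 to 61411 CPM in control and 46624 to 55917 CPM in treated livers. Of 7 sinusoidal endothelial markers, 6 were positive (median 0.29, sums 115 to 155 and 126 to 179 CPM), and *Cdh5* among them was at 0.53 with DESeq2 adjusted P = 0.0223 and edgeR adjusted P = 0.105. All 6 stellate cell markers were positive (median 0.27, sums 231 to 374 and 271 to 451 CPM), as were 5 of 7 Kupffer cell markers (median 0.041, sums 219 to 317 and 175 to 386 CPM). The 5 bile duct markers were positive too (median 0.55, sums 25 to 117 and 35.1 to 190 CPM), as were 5 of 7 markers of other leukocytes (median 0.04, sums 11 to 23 and 14.2 to 28.1 CPM). *Spp1* gave most of the highest bile duct sums, at 108 CPM in control replicate 1 and 180 CPM in MI-883 replicate 3. *Krt7*, *Krt19* and *Epcam* were low, with control means of 0.575, 0.804 and 1.46 CPM. Beside 2059 of all 13219 tested genes with an unadjusted P under 0.05, 10 of the 38 markers had one. None of the 38 markers was called by edgeR and 1 was called by DESeq2, beside 1.03% and 3.5% of all tested genes. The part of the markers in the results for *F2r* and the members was not tested.

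Of 15 acute phase proteins of the liver outside the 39 genes, 10 were negative, and the median of the 15 was −0.036. *Orm3* alone was called by edgeR (1 of 15, beside 1.03% of all tested genes), upward at 1.18 (SE 0.191, edgeR adjusted P = 0.00978). Of 16 regulators of hepatocyte transcription none was called by edgeR and 2 had an unadjusted P under 0.05, beside 2059 of all 13219 genes. DESeq2 called 1 of the 16, beside 3.5% of all tested genes. It was *Cebpa*, a C/EBP factor of hepatocytes, at 644 ± 37.4 CPM in control and 524 ± 55.2 CPM in treated livers (S.D., n = 5; log2 fold change −0.30, DESeq2 adjusted P = 0.0151, edgeR adjusted P = 0.133), with 1 treated liver within the control range. As a check of dosing, *Cyp2b10*, the classic target of CAR, was at 36.5 ± 9.10 CPM in control livers and rose to 1019 ± 299 CPM after MI-883 (edgeR adjusted P = 3.63e-07). Library totals lay between 23513665 and 36221514 counts, and no member had fewer than 767 counts in any liver.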

How the data were processed

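Liver RNA of 5 control and 5 MI-883-treated mice was sequenced from directional libraries. The authors aligned the reads to mm10 with STAR, and the submitters' processing notes name fastp 0.23.0 and featureCounts. The annotation and the strand setting are not given in the sources used here. The authors deposited raw counts per gene under Entrez numbers, of which 16644 of 16647 matched RefSeq. Diet, dosing weeks and ages are from the methods of the study.

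Genes with at least 60 counts summed over 10 livers (13219, with 3428 below) were tested with edgeR 4.0.16 in R 4.3.3 (TMM, quasi-likelihood test, condition alone). P values were adjusted by Benjamini-Hochberg over all tested genes, with a threshold of 0.05. SE is the size of the log2 fold change over the square root of F. DESeq2 1.42.0 (Wald test, no independent filtering), other scalings and filters, a replicate block and omission of each liver were alternatives. Library totals were 24014461 to 36221514 counts in control and 23513665 to 28349963 in treated livers, a depth at which counting error is small for members, the lowest having 767 counts.

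The members and lists were chosen with earlier results of these data known. A member is given in every liver where edgeR or DESeq2 calls it, where groups do not overlap, where it is among the 3 largest changes in a direction, or where it is a vitamin K enzyme. *Fga* was added to its partner chains after its values were seen. Other genes are named where called, where groups do not overlap or as partners of a member. Within-liver ratios and the fit of *C6* by the permutation test without control replicate 3 were chosen after seeing the data. The functions for the edgeR and DESeq2 fits were run on simulated counts. A few of the other pathway genes that met these criteria are not reported here.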

Additional observations from a re-analysis of the deposited data

Results flagged for a closer look

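*C6* in control replicate 3 stood far from the other control livers, at 330 CPM with the nearest at 241 CPM, by a test of the gap to the nearest liver against the range of the group. The test was made in 78 groups (the 39 genes in each group of 5 livers), of which chance alone would pick about 3.9, and 1 was picked. Without this liver the control mean was 226 ± 11.3 CPM (S.D., 4 livers) and the log2 fold change 0.71, with an edgeR adjusted P of 0.00176. By an exact permutation test (two-sided) P was 0.0159, the smallest value possible with 4 livers against 5. As the liver left out was the control nearest the treated livers, its omission could only widen the difference between the means.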

How the results depend on the processing

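The 3 called members were also called with DESeq2 size factors or total counts as the scaling in edgeR, with 60 counts in every sample, with filterByExpr and without a filter. DESeq2's own test called 463 genes in place of 136, 6 members, and 3 marker and context genes in place of 1. With total counts, 8 members did not overlap between groups in place of 5 (*C8g*, *Fgb* and *Fgg* in addition), beside 3.48% of all genes, and with DESeq2 size factors 4 (without *Klkb1*), beside 3.89%. With total counts 1 other pathway gene (*Cfd*) was called in place of 3. With 60 counts in every sample, which left out *Cfd*, 1 was called (*F2r*). Leaving out 1 liver gave 62 to 203 called genes, 0 to 3 members, 1 to 3 other pathway genes and 1 to 2 marker and context genes. Correlations of same-numbered livers ran from −0.121 to 0.36 and none matched its own number best. This gives no sign that the replicate numbers pair the livers, but with 5 livers per group it cannot exclude that they do. With the number as a block, 89 genes, 1 member (*C6*, adjusted P = 0.0451) and 1 other pathway gene were called, and *Ggcx* and *Mbl1* had adjusted P of 0.081 and 0.0809. The cause of these shifts was not tested. Of the 39 members, 28 kept their sign under 17 alternatives, and 11 did not, among them *C8b*, whose value was −0.20. With total counts the log2 fold change was 0.018 for *C1s1*, 0.038 for *C4bp*, 0.0014 for *C8a*, 0.028 for *F2* and 0.037 for *F13b*, and with 60 counts in every sample 0.011 for *C4bp*, 0.003 for *F2* and 0.011 for *F13b*. Leaving out 1 liver gave −0.014 to 0.1 for *Masp2*, −0.12 to 0.035 for *C3*, −0.046 to 0.029 for *C4bp*, −0.13 to 0.16 for *C8a*, −0.36 to 0.02 for *C8b*, −0.17 to 0.087 for *F11*, −0.016 to 0.052 for *F12*, −0.051 to 0.038 for *F2*, −0.039 to 0.019 for *F13b* and −0.038 to 0.061 for *Serpind1*.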
